A study of Homo sapiens with 10 samples.

Results

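Clade B serpins (gene names starting with SERPINB) were followed in RWPE-1, a cell line of normal human prostate epithelium that was immortalised and does not form tumours. The members are SERPINB1, SERPINB2, SERPINB3, SERPINB4, SERPINB5, SERPINB6, SERPINB7, SERPINB8, SERPINB9 and SERPINB13. Every probe set of the HG-U133 Plus 2.0 array annotated to exactly 1 gene, that gene being one of the 10, was taken. This gave 21 of 54675 probe sets, for 8 of the 10 genes. No probe set was named for SERPINB2 or SERPINB6 in the annotation used, so both were not analysed here. The family was picked on earlier results of the same arrays, the intensities compared between ETV1, ERG and control, so member values are given as a description with no p-values.

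All 10 arrays came from cells transduced with MSCV retroviruses and selected as stable clones, and all of them carried the biotin ligase BirA. The control cells carried BirA alone (3 arrays, replicates A to C), and the other cells carried BirA and ETV1 (4 arrays, A to D) or BirA and ERG (3 arrays, A to C). ETV1 and ERG are ETS family transcription factors that gene fusions activate in prostate cancer, and the comparison asks how the serpins differ when each is overexpressed. Nothing in the labels says that replicates came from separately derived clones, so the spread between arrays may be partly technical, and p-values measure that spread only.

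Serpins inhibit proteases by offering a reactive loop as bait. The protease cuts the loop and stays trapped on the serpin, which makes each molecule a single-use inhibitor. Clade B serpins mostly lack a classical secretion signal, act largely inside cells, and are abundant in stratified epithelia and in leukocytes. SERPINB5 (maspin) is the exception among the members described here, since it does not inhibit proteases by this trap and is known as a marker of basal prostate epithelium.

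In GRCh38.p14, 7 of the 10 members (SERPINB2, SERPINB3, SERPINB4, SERPINB5, SERPINB7, SERPINB8 and SERPINB13) lay within 543 kb on chromosome 18. SERPINB1, SERPINB6 and SERPINB9 lay within 139 kb on chromosome 6. The 250 bases before the annotated start of 6 members are shown, chosen after the array values were seen, as RefSeq gives them in GRCh38.p14, 5′ to 3′ on the strand of the gene. The first pair comes from the neighbouring genes SERPINB3 (chr18:63661894-63662143, minus strand) and SERPINB4 (chr18:63644257-63644506, minus strand), and capitals mark the bases at which they differ.
SERPINB3: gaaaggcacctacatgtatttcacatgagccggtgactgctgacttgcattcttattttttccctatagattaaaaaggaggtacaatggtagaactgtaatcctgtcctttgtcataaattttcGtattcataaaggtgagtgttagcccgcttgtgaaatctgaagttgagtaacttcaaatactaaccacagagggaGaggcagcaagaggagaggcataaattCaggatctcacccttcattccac
SERPINB4: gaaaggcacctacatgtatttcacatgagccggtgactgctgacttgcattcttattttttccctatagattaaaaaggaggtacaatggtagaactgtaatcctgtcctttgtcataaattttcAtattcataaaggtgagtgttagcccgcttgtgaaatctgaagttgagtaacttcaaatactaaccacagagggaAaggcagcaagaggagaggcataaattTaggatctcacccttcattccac

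These windows were the same at 247 of 250 bases (98.8%). The 3 differences were G126A, G201A and C228T, with the SERPINB3 base first and positions counted from 1 at the 5′ end. The next most similar member window to that of SERPINB3 was that of SERPINB5, the same at 29.2% of aligned positions without gaps.

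The next 4 windows are those of SERPINB7 (chr18:63777531-63777780, plus strand, one of 3 annotated starts), SERPINB13 (chr18:63587093-63587342, plus strand), SERPINB8 (chr18:63969831-63970080, plus strand) and SERPINB1 (chr6:2841864-2842113, minus strand). Capitals mark matches on either strand to TGANTCA, a pattern that takes in the AP-1 site (a G or C at the N) and also other letters there, or to CCGGAAG, a form of the site that ETS factors bind.
SERPINB7: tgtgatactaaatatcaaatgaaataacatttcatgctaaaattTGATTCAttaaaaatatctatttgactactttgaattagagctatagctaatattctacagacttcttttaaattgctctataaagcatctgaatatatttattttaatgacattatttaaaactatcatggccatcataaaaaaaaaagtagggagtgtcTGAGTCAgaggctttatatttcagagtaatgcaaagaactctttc
SERPINB13: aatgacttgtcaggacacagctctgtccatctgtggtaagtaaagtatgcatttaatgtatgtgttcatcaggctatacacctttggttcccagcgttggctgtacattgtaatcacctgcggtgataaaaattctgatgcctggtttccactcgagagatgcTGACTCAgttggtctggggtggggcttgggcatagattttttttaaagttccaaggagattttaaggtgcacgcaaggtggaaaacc
SERPINB8: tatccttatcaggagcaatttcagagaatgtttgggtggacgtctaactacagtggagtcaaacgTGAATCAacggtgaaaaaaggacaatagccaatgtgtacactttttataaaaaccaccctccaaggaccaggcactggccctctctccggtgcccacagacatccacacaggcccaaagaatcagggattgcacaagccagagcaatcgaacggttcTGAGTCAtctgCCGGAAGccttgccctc
SERPINB1: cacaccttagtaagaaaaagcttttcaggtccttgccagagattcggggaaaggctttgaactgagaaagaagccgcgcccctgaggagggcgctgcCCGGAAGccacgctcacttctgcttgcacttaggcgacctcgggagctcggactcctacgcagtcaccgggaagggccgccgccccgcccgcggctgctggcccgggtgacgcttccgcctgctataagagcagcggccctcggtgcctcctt

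TGANTCA matched in 6.57% of all 35116 RefSeq windows of this length and in 6 of the 15 windows of the 10 members, which belong to SERPINB2, SERPINB5, SERPINB7, SERPINB8 and SERPINB13. Those of SERPINB2 and SERPINB5 held only the form with an A at the N. CCGGAAG matched in 8.52% of all windows and in those of SERPINB1, SERPINB6 and SERPINB8. The ETS core GGAA alone matched in 92.7% of all windows and in a window of each of the 10 members, so its presence sets no gene apart. In SERPINB8 the matches to TGAGTCA and CCGGAAG lay 21 and 10 bases before the start. The motifs were chosen after the array values were seen, overlaps between them were allowed, and a match is a description of letters.

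The deposited values are linear intensities per probe set, and the groups differed in ways that reach every probe set. Median intensity per array was 71.4 to 73.4 in control, 70.9 to 75.5 in ETV1 and 48.4 to 52.6 in the arrays labelled ERG. The 3′ to 5′ ratio of ACTB, which rises when RNA or its labelling is incomplete, was 1.35 to 1.4, 1.24 to 1.3 and 2.75 to 3.07 in the same order, and the 5′ probe set of 18S ribosomal RNA read 79 to 159, 276 to 874 and 834 to 1103. The 3′ probe set of the cre control read 11334 to 12007, 11578 to 12802 and 21757 to 24245. Probe sets at the value 1 numbered 1426 to 1604, 1505 to 1560 and 663 to 689 per array. Spearman correlations with control arrays were 0.956 to 0.969 for ETV1 arrays and 0.766 to 0.811 for the arrays labelled ERG. The part of these in the member values was not tested. The ETV1 probe set 217053_x_at read 88.1 ± 29 (SD, n = 3) in control and 1320 ± 355 (n = 4) in ETV1 cells (log2 difference 3.67, limma adjusted p = 1.5e-07). The ETV1 probe sets 206501_x_at and 217061_s_at also rose (2.67 and 2.69). Not every ETV1 probe set did: 221910_at differed by 0.14 (limma adjusted p = 0.68), and the dim 221911_at was not tested. The brightest ERG probe set, 222079_at, read 186 ± 4.61 in control and 9.43 ± 1.57 on the arrays labelled ERG (limma adjusted p = 7.8e-11), against their label. The other ERG probe sets were dim, were not tested and had higher means on the arrays labelled ERG. Among them 211626_x_at read 9.04 ± 3.23 and 36.5 ± 12.3, 213541_s_at 25.5 ± 12.5 and 33.5 ± 7.35, and 241926_s_at 17.2 ± 3.52 and 26.4 ± 7.76. For 213541_s_at and 241926_s_at the groups overlapped. The label ERG is therefore kept as a label throughout. KRT5 and KRT14, basal keratins, read 5210 ± 194 and 8610 ± 596 in control, so the basal markers were present. TP63 was not analysed here.

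Of the 21 member probe sets, 14 lay above the median of their array on at least 3 arrays and were tested, for 7 genes. These were all 4 of SERPINB1, both of SERPINB3, the 1 of SERPINB4, 1 of 2 of SERPINB5, the 1 of SERPINB7, both of SERPINB8 and 3 of 6 of SERPINB13. None of the 3 of SERPINB9 passed this filter. Of the 14, 5 lay above the array median on no control array, namely 206421_s_at of SERPINB7 (on the 4 ETV1 arrays alone), 211906_s_at of SERPINB4, 209720_s_at of SERPINB3, 211361_s_at of SERPINB13 and 239213_at of SERPINB1. These passed only through arrays of the other groups. In the gene lists below, called probe sets of SERPINA1, SERPINF1, KLK8, BPHL, ZCCHC2 and BCL2, among others, had control means below the control array medians. Such probe sets may likewise have passed only through the other groups, so their adjusted p-values are no separate support. Differences are on the scale of log2(intensity + 16), which makes those of dim probe sets smaller than the ratio of their intensities. A probe set is called when its limma adjusted p over all 31835 tested probe sets is under 0.05. Levels of different probe sets are not compared, since each binds with its own strength.

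In ETV1 cells, 11 of the 14 tested member probe sets were called higher and none lower, and 4 of the 11 had passed the filter without a control array. Over all tested probe sets, 20.5% were called in this comparison, 9.2% higher and 11.3% lower. The median difference was 0.91 over the 14 and −0.03 over all. The rule drew on this contrast, so nothing is read from the count. The called differences ran from 0.51 for SERPINB8 to 2.78 for SERPINB7. In whole-culture RNA, more cells expressing a gene and more RNA per cell cannot be told apart.

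On the arrays labelled ERG, 10 of the 14 were called, 8 higher and 2 lower than control. Of the higher calls, 206421_s_at of SERPINB7, 211906_s_at of SERPINB4, 209720_s_at of SERPINB3 and 211361_s_at of SERPINB13 had passed the filter without a control array. The background was 78.2% called, 40.6% higher and 37.6% lower, so the share of members called lay near that of all probe sets. The median difference was 0.92 over the 14 and 0.08 over all. SERPINB8 and SERPINB13 each had probe sets called in both directions.

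**Figure D1:**
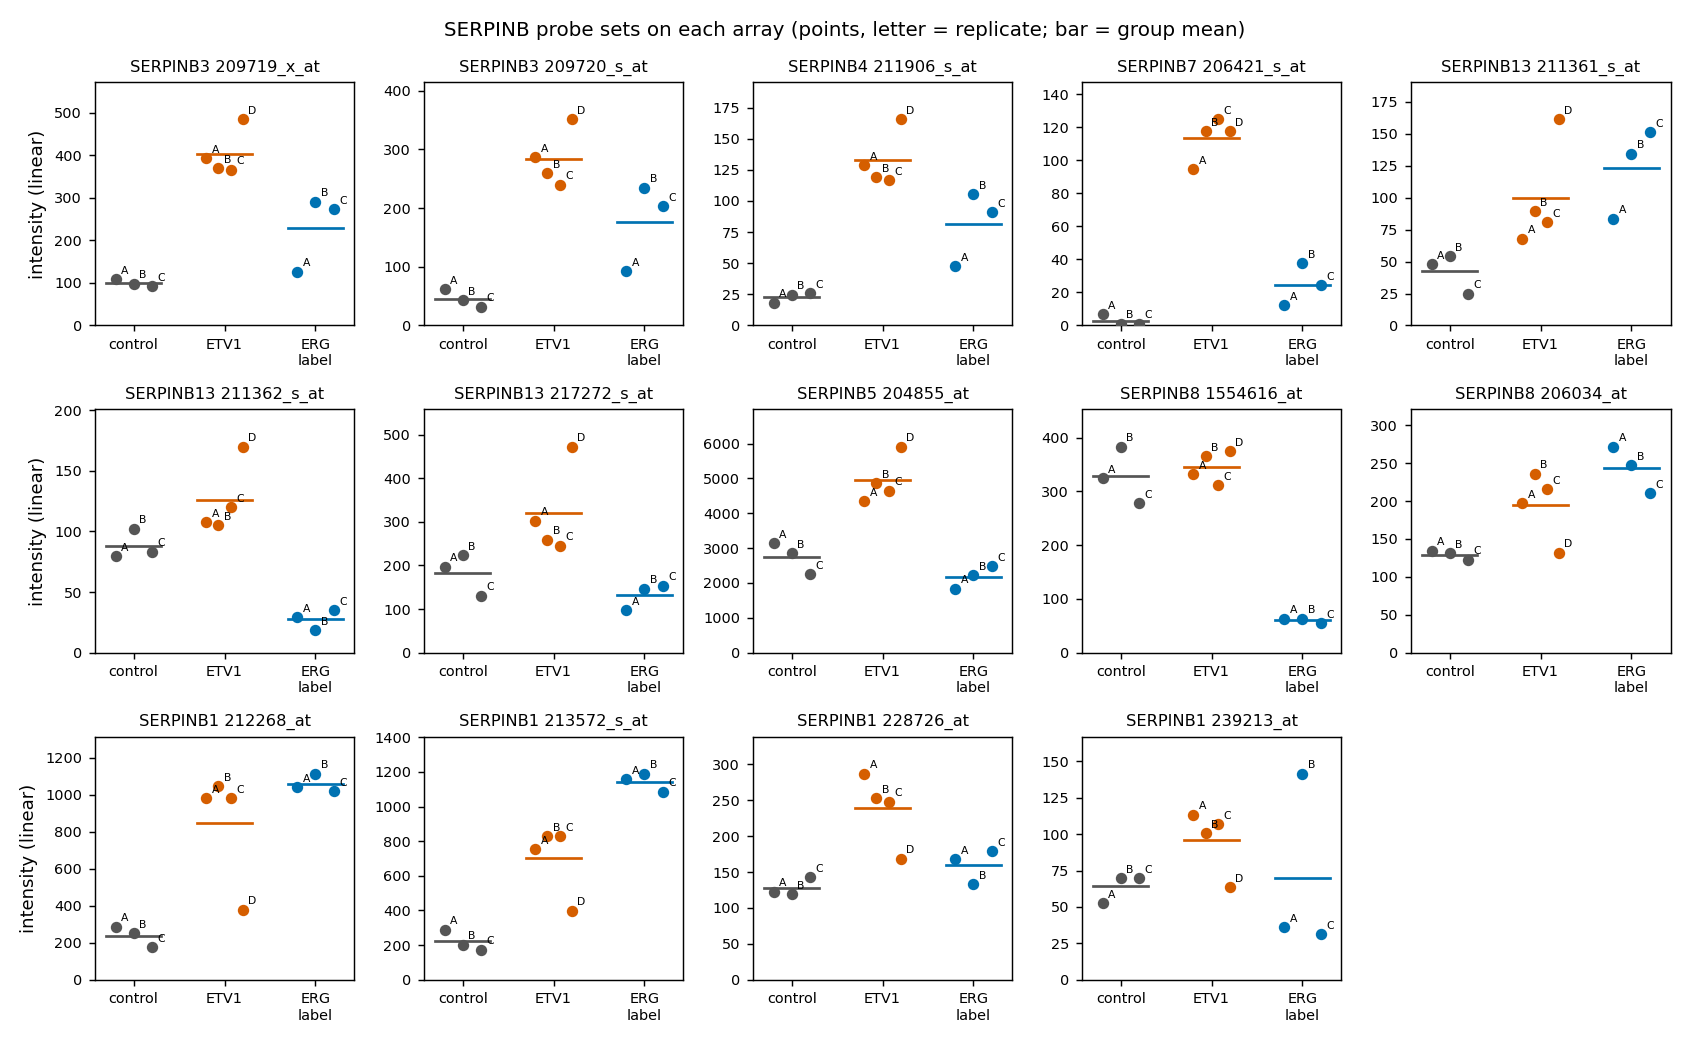
Intensity (linear, vertical axis from 0) of each tested SERPINB probe set on every array, by group on the horizontal axis. Points are arrays, letters are replicates and bars are group means. For SERPINB3, SERPINB4 and SERPINB7 all 4 ETV1 arrays lie above all other arrays, and for SERPINB1 ETV1 replicate D lies well below the other ETV1 arrays.

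SERPINB3 and SERPINB4, the squamous cell carcinoma antigens, stood highest in ETV1 cells, lower on the arrays labelled ERG and lowest in control. SERPINB3 is known to inhibit cysteine proteases such as cathepsins L, S and K. Its probe set 209720_s_at read 61.7, 42.9 and 32.2 on control arrays A to C. It read 287.1, 259.2, 239.8 and 351.0 on ETV1 arrays A to D, and 92.0, 234.6 and 202.7 on the arrays labelled ERG. No group overlapped another, and array A labelled ERG lay nearest to control. The difference from control was 2.30 (SE 0.25) in ETV1 cells and 1.58 (SE 0.27) on the arrays labelled ERG.

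The other SERPINB3 probe set, 209719_x_at, read 109.0, 98.0 and 92.0 in control. It read 393.0, 370.2, 366.7 and 484.5 in ETV1 cells, and 126.1, 290.9 and 273.8 on the arrays labelled ERG. The groups again kept apart, with array A labelled ERG just above control array A. The differences were 1.85 (SE 0.22) and 1.01 (SE 0.23).

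SERPINB4 is known to inhibit chymotrypsin-like serine proteases such as cathepsin G and mast cell chymase. Its probe set read 18.1, 24.7 and 25.9 in control, 128.8, 119.0, 116.8 and 165.5 in ETV1 cells, and 47.4, 105.5 and 90.9 on the arrays labelled ERG. The order of the arrays within the ETV1 and ERG groups was the same as for SERPINB3, with replicate D highest and array A labelled ERG lowest. The differences were 1.93 (SE 0.20) and 1.28 (SE 0.21). A further probe set, 210413_x_at, names both genes and so falls outside the rule, and it read 96.2 ± 19.1 in control, 320 ± 49.1 in ETV1 cells and 219 ± 76.1 on the arrays labelled ERG. The genes are near-identical, as their printed windows are, so signal may be shared between their probe sets and they are not counted as separate evidence.

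SERPINB7 (megsin), a serpin of the epidermis, was dimmest in control. Its probe set read 6.8, 1.0 and 1.0 in control, where 1 is the value at which the deposited intensities pile up. It read 94.4, 117.6, 124.7 and 117.6 in ETV1 cells and 12.1, 37.8 and 24.4 on the arrays labelled ERG. All 4 ETV1 arrays lay above all arrays labelled ERG, and these above all control arrays. The differences from control were 2.78 (SE 0.19) and 1.07 (SE 0.21), and no ratio is given because the control level is a bound. Their size depends on the value added before the log, running from 1.41 to 5.18 and from 0.4 to 2.9 over the alternatives, with the lowest at an added 64 and the highest at an added 1.

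SERPINB13 (headpin or hurpin), an inhibitor of cathepsins L and K in keratinocytes, gave different pictures by probe set. Probe set 211361_s_at read 47.9, 54.2 and 24.8 in control, 67.8, 89.6, 80.6 and 161.3 in ETV1 cells, and 83.5, 134.5 and 151.5 on the arrays labelled ERG. Both groups lay above control and overlapped each other, with differences of 0.97 (SE 0.26) and 1.26 (SE 0.27). Probe set 211362_s_at read 79.6, 102.1 and 83.2, then 107.8, 104.9, 119.9 and 170.0, then 29.3, 18.6 and 34.8, in the same group order. Here the arrays labelled ERG lay below control (−1.27, SE 0.19), and the ETV1 arrays lay just above control without a call (0.42, SE 0.18).

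The third, 217272_s_at, read 184 ± 48 in control. It read 320 ± 105 in ETV1 cells (0.73, SE 0.23) and 133 ± 30.6 on the arrays labelled ERG (−0.42, SE 0.24, not called). That last difference was called without control replicate C (−0.63) and was 0.05 with median scaling. All 3 were highest on ETV1 replicate D among the ETV1 arrays. The calls of 211361_s_at and 217272_s_at in ETV1 cells were both lost without control replicate C, at 0.73 and 0.52, and at a threshold of 0.01. That of 217272_s_at was also lost without control replicate A (0.79), ETV1 replicate A (0.74) or ETV1 replicate D (0.54). The same call was lost with the replicate block (0.54), with an added value of 1 (0.78) and with no filter (0.73). The other 3 SERPINB13 probe sets did not pass the filter, and in one of them, 216258_s_at, control arrays read 11.3 ± 3.26 and ETV1 arrays 42.8 ± 17.1.

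SERPINB1 (monocyte/neutrophil elastase inhibitor) was higher than control in both groups with 2 of its 4 probe sets and was called higher in ETV1 cells with 1 more. Probe set 212268_at read 287.3, 252.5 and 175.5 in control, 979.4, 1046.3, 981.9 and 378.8 in ETV1 cells, and 1039.4, 1112.8 and 1019.1 on the arrays labelled ERG. Both groups kept apart from control, but ETV1 replicate D lay closer to control than to the other ETV1 arrays. The differences from control were 1.68 (SE 0.28) and 2.10 (SE 0.30), and without replicate D the first was 2.03 (SE 0.17).

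Probe set 213572_s_at repeated this pattern, at 221 ± 59.6 in control, 702 ± 206 in ETV1 cells and 1140 ± 53.7 on the arrays labelled ERG. Its differences were 1.57 (SE 0.23) and 2.32 (SE 0.24). Probe set 228726_at read 128 ± 12.8, 239 ± 50 and 160 ± 24.2, and was called in ETV1 cells (0.80, SE 0.17) but not on the arrays labelled ERG (0.28, SE 0.18), where quantile normalization (0.52) and median scaling (0.75) each gave a call. The last, 239213_at, read 64.1 ± 9.98, 96 ± 22.2 and 69.5 ± 62.3, where array B labelled ERG read 141.4 and the other 2 read 35.9 and 31.3. It was called in neither comparison, but without array B labelled ERG it was called in both, at 0.47 and −0.68.

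SERPINB8, an inhibitor of the proprotein convertase furin, had probe sets that moved apart on the arrays labelled ERG. Probe set 1554616_at read 324.9, 383.5 and 278.6 in control, 331.9, 365.8, 311.7 and 374.6 in ETV1 cells, and 63.0, 63.0 and 55.1 on the arrays labelled ERG. Control and ETV1 arrays overlapped throughout (0.08, SE 0.14), and the arrays labelled ERG lay far below both (−2.17, SE 0.15). Probe set 206034_at read 134.3, 130.9 and 122.8, then 197.2, 235.9, 215.6 and 131.9, then 271.8, 247.4 and 210.2. Its difference was 0.83 (SE 0.18) on the arrays labelled ERG. In ETV1 cells it was 0.51 (SE 0.17), and replicate D lay inside the control range. Leaving out control replicate A, B or C, or ETV1 replicate A, B or C, ended that call, at 0.42 to 0.54, and leaving out ETV1 replicate D gave 0.67. The call was also lost with median scaling (0.48), with an added value of 1 (0.56), with no filter (0.51) and with single-transcript probe sets alone (0.51). It was lost at a threshold of 0.01 as well.

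SERPINB5 (maspin) was bright in all groups. Its probe set 204855_at read 3132.0, 2860.0 and 2251.9 in control, 4351.6, 4870.6, 4646.2 and 5913.6 in ETV1 cells, and 1837.2, 2227.0 and 2482.3 on the arrays labelled ERG. The ETV1 arrays lay above all others (0.85, SE 0.16), and the arrays labelled ERG overlapped control (−0.33, SE 0.17, not called). That last difference was called without control replicate C (−0.46) or without array C labelled ERG (−0.43), and under quantile normalization (−0.91), and it was 0.18, not called, with each array scaled to the same median. The dim probe set 1555551_at was not tested and read 23.3 ± 5.51, 40.7 ± 15.6 and 11.6 ± 3.41.

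SERPINB9, the inhibitor of granzyme B that shields cells from their own cytotoxic protease, was dim. Its probe set 209722_s_at read 5.8, 7.8 and 43.9 in control, 11.1, 1.5, 3.4 and 6.7 in ETV1 cells, and 45.2, 71.9 and 51.8 on the arrays labelled ERG. Control array C stood with the arrays labelled ERG and the other control arrays with the ETV1 arrays. The other probe sets, 209723_at and 242814_at, lay between 31.9 and 62.7 and between 1.89 and 26.4 over the 10 arrays, with every group overlapping the others. The clade B serpins outside the members, SERPINB10, SERPINB11 and SERPINB12, had dim probe sets and none was tested. SERPINB10 read 1 on each control array, and SERPINB11 read 29.4 ± 0.825 in control and 48.2 ± 6.61 on the arrays labelled ERG.

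**Figure D2:**
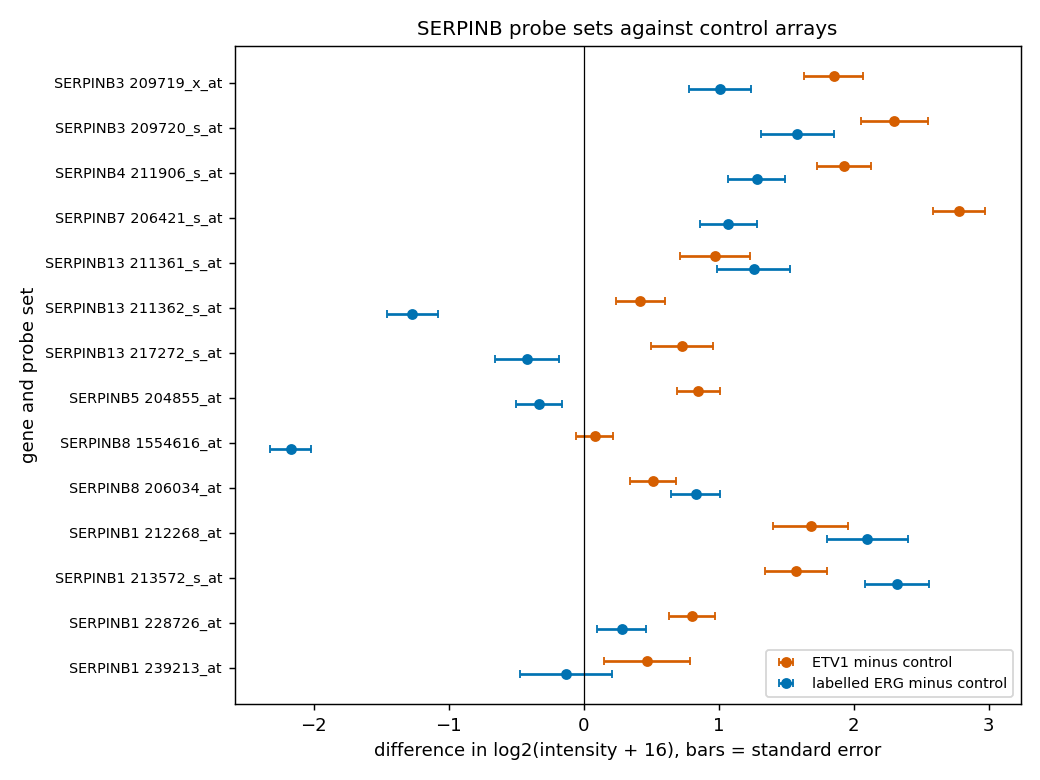
Difference from control in log2(intensity + 16), horizontal axis, for each tested SERPINB probe set, with bars of 1 standard error. Orange points are ETV1 cells and blue points the arrays labelled ERG. The orange points all lie above 0, up to 2.78 for SERPINB7, while the blue points run from −2.17 for a SERPINB8 probe set to 2.32 for a SERPINB1 probe set.

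Set directly against ETV1 cells, the arrays labelled ERG had 10 of the 14 member probe sets called, 1 higher and 9 lower, against a background of 81.8% called, 43% higher and 38.8% lower. The median difference was −0.68 over the 14 and 0.10 over all. SERPINB7, called lower here, had passed the filter through the ETV1 arrays alone. The split depended on the scaling of the arrays. With each array scaled to the same median it was 4 higher and 5 lower, and after quantile normalization 2 higher and 7 lower. Median scaling moved the median of all probe sets in this comparison from 0.10 to 0.61. Called lower in both alternatives were SERPINB5, SERPINB7, 1554616_at of SERPINB8, and 211362_s_at and 217272_s_at of SERPINB13. The lower calls of SERPINB4 (−0.65) and of 209720_s_at of SERPINB3 (−0.72) were lost without array A labelled ERG, at −0.37 and −0.35. Both comparisons with control share the same 3 control arrays, so their likeness for single members is not tested.

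ETV1 replicate D stood apart from the other ETV1 arrays in the members, and in opposite directions by gene. It was lowest for all 4 SERPINB1 probe sets and for 206034_at of SERPINB8, and highest for SERPINB3, SERPINB4, the 3 tested probe sets of SERPINB13, 204855_at of SERPINB5 and 1554616_at of SERPINB8. Its ETV1 probe set 217053_x_at read 844.5, against 1301.8 to 1689 on the other ETV1 arrays, and its 18S ribosomal RNA probe set read 276, against 680 to 874. The part of either in these values was not tested.

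A list of 16 proteases was drawn up as targets of clade B serpins, though no member is described here as inhibiting CTSB or CTSH. Of the 16 proteases, 11 were tested. In ETV1 cells 4 had a probe set that rose and 2 one that fell. The median difference of the list was 0.18, against −0.03 over all, and among all 14116 tested genes 13.2% had a higher and 17.3% a lower probe set. PLAT, tissue plasminogen activator, rose from 172 ± 58.8 to 579 ± 51 (1.70, SE 0.22, adjusted p = 9.1e-05). CTSB, cathepsin B, rose from 923 ± 137 to 2020 ± 172 (1.12, adjusted p = 8.4e-05). CTSH, cathepsin H, fell from 1290 ± 254 to 632 ± 86.8 (log2 difference −1.0, adjusted p = 0.0011). PLAU and CTSL also rose, by 0.67 and 0.88 for the 2 PLAU probe sets and by 0.52 for CTSL, and 1 of 5 CASP1 probe sets fell (−0.47). FURIN, the protease that SERPINB8 inhibits, differed by 0.04 (adjusted p = 0.90).

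On the arrays labelled ERG, 8 of the 11 proteases had a probe set that rose and 3 one that fell, 2 of them both, against 58% and 48.5% of all tested genes. KLK8, a kallikrein of stratified epithelium, read 4.7 ± 3.91 in control and 419 ± 31.3 on the arrays labelled ERG with one probe set (adjusted p = 1.2e-11), while its other probe set differed by 0.48 (adjusted p = 0.084). No difference is given for the first, since its size depends on the value added before the log when control is this dim. That probe set passed the filter through the arrays labelled ERG alone. CASP1, the interleukin-1β converting caspase, rose from 263 ± 45.7 to 975 ± 127 (1.83, adjusted p = 9.1e-08), and PLAT to 663 ± 240 (1.83, adjusted p = 4.7e-06). FURIN fell from 433 to 182 (−1.17, adjusted p = 5.9e-06). PLAU had one probe set that rose (1.64) and one that fell (−0.81).

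Of the serpins of other clades, 10 genes were tested, and in ETV1 cells 4 had a probe set that rose and 1 had one that fell, with a median difference of −0.01 over the list. The shares over all tested genes were 13.2% higher and 17.3% lower. The 1 that fell was SERPINH1 (−0.44, adjusted p = 0.039), and it was no longer called with the replicate block, with an added value of 1, with no filter, or without control replicate A, control replicate B or any single ETV1 array. SERPINA3 (α1-antichymotrypsin) rose from 74.5 ± 8.46 to 238 ± 7.28 (1.49, adjusted p = 2.8e-06), SERPINA1 (α1-antitrypsin) from 27.1 ± 10.5 to 104 ± 26.3 (1.48, adjusted p = 0.00022), and SERPINF1 (PEDF) from 51.2 ± 1.08 to 150 ± 27.6 (1.29, adjusted p = 2.1e-05). The control arrays of these SERPINA1 and SERPINF1 probe sets lay below the array median, so both passed the filter only through other groups. On the arrays labelled ERG 3 of the 10 genes had a probe set that rose and 6 one that fell, 1 of them both, against 58% and 48.5% of all tested genes. Among them were SERPINF1 (1.62, adjusted p = 1.7e-07), SERPINE2 (−2.14, adjusted p = 2.9e-07) and SERPINA4 (−1.78, adjusted p = 2.2e-07).

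Of 6 protein-coding genes within 1 Mb of the chromosome 18 cluster, 5 were tested, 4 had a probe set that rose in ETV1 cells and none had one that fell, with a median difference of 0.70. Over all tested genes, 13.2% had a higher and 17.3% a lower probe set in ETV1 cells. KDSR, an enzyme of sphingolipid synthesis, rose with all 3 probe sets, the first from 114 ± 18.3 to 334 ± 32.3 (1.43, adjusted p = 1.4e-05). ZCCHC2 rose with 2 of 3 probe sets, one of them from 69.7 ± 12.8 to 213 ± 63.9 (1.39, adjusted p = 3e-04) and VPS4B, an ATPase of membrane scission, from 1310 ± 293 to 2110 ± 135 (0.70, adjusted p = 0.0052). BCL2, the inhibitor of apoptosis, rose with 1 of 3 probe sets (0.51, adjusted p = 0.012), and PHLPP1 differed by 0.17 (adjusted p = 0.49). Beside the chromosome 6 members, 10 genes were tested, none rose and 1, PXDC1, fell (−0.65), with a median of −0.10. That count of 1 was 4 without control replicate C, 2 without ETV1 replicate D and 0 without control replicate A. The difference between both neighbourhoods was not tested.

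On the arrays labelled ERG the chromosome 18 neighbours split, with 3 genes that had a probe set that rose and 2 with one that fell, 1 of them both. Without array A or array C labelled ERG, 1 gene had a probe set that rose, and without array B 2 did. Beside the chromosome 6 members 7 rose and 3 fell, 2 of them both. Over all tested genes, 58% had a higher and 48.5% a lower probe set in this comparison. PSMG4 rose with 1 of 3 probe sets, from 460 ± 89.8 to 2810 ± 850 (2.54, adjusted p = 3.2e-08), BPHL from 63 ± 13.8 to 377 ± 42.8 (2.32, adjusted p = 6.6e-09), and SLC22A23 fell with one probe set from 130 ± 3.6 to 13.3 ± 10.3 (−2.37, adjusted p = 7.4e-08). Of the other SLC22A23 probe sets, one fell (−0.54, adjusted p = 0.017) and one rose (0.91, adjusted p = 0.00019). The remaining PSMG4 probe sets differed by 0.18 (adjusted p = 0.33) and −0.44 (adjusted p = 0.058).

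**Figure D3:**
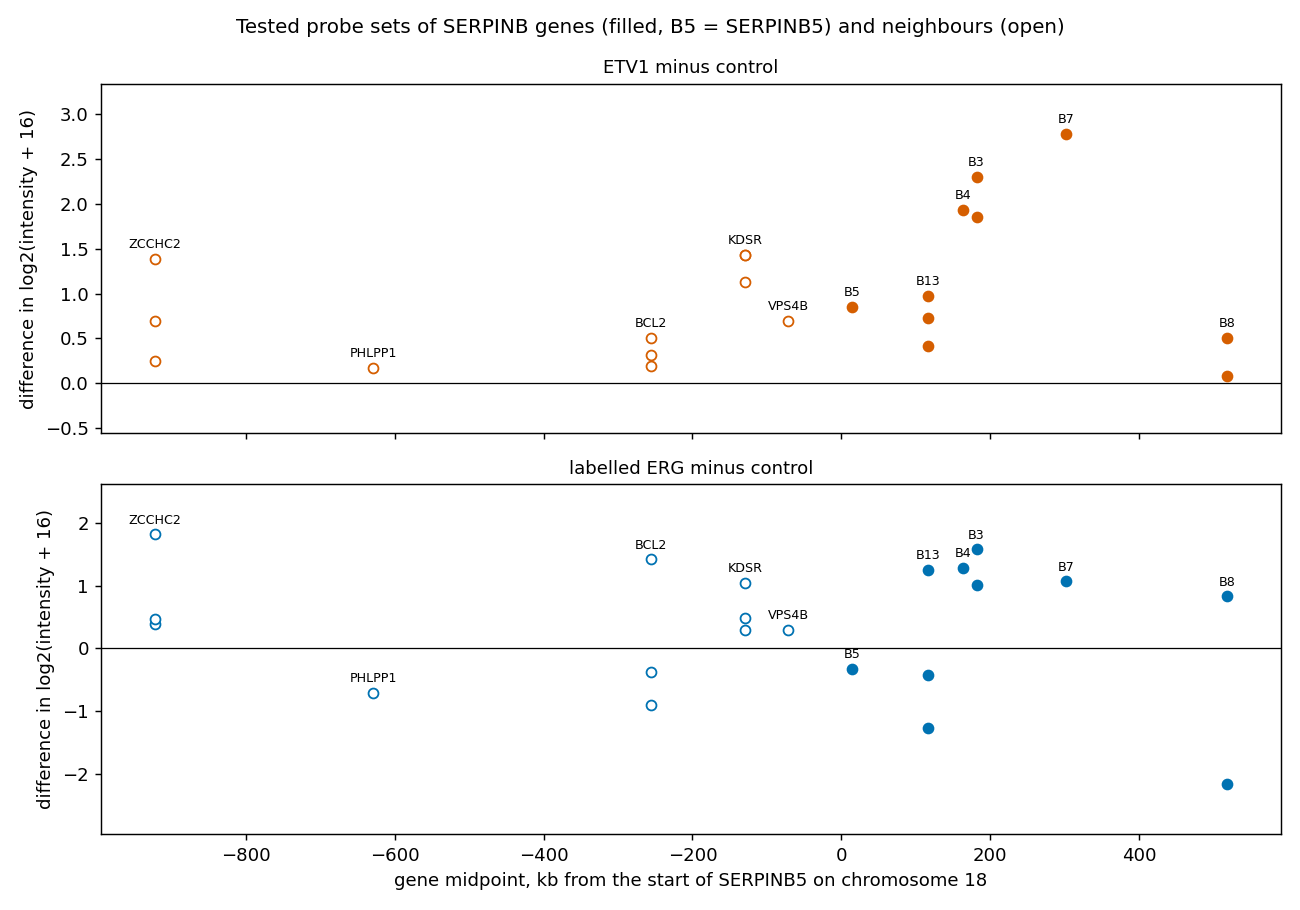
Difference from control in log2(intensity + 16), vertical axis, by gene midpoint in kb from the start of SERPINB5 on chromosome 18, for ETV1 cells (top) and the arrays labelled ERG (bottom). Filled points are SERPINB probe sets and open points those of neighbouring genes. In the top panel all points lie above 0, and in the bottom panel points of one gene lie on both sides of 0 for SERPINB13, SERPINB8 and BCL2.

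Markers of epithelial state differed between the same groups. The summed intensity of 8 basal genes was 21943 to 24856 in control, 28783 to 33064 in ETV1 and 30140 to 31642 on the arrays labelled ERG. That of 11 squamous genes was 3464 to 5300, 7586 to 12457 and 11647 to 21409. Of all tested genes, 13.2% had a probe set called higher and 17.3% one called lower in ETV1 cells, and 58% and 48.5% on the arrays labelled ERG. In ETV1 cells 6 of 8 tested basal genes had a probe set that rose and none fell, with a median difference of 0.41. On the arrays labelled ERG 2 rose and 4 fell, with a median of −0.4, while KRT5 rose from 5210 to 11300, so the sum and the count of genes differ in direction there. In ETV1 cells, of 10 squamous genes 5 rose and 1 fell, that 1 with probe sets in both directions. Sums over 8 luminal genes were 9198 to 10698, 5905 to 8474 and 11473 to 12037. Of 6 tested luminal genes none rose and 2 fell in ETV1 cells (median −0.35), and 1 rose and 3 fell on the arrays labelled ERG (median −0.71). Sums of fibroblast genes (974 to 1247 in control) and leukocyte genes (273 to 352) lay within the control range in ETV1 cells, at 1123 to 1176 and 298 to 346. On the arrays labelled ERG these sums lay below it, at 246 to 329 and 108 to 165. Both tested fibroblast genes, COL1A1 and DCN, had probe sets called in each direction there. Their median difference was 0.63, so the fibroblast sum and the probe sets differ. Endothelial genes summed to 1482 to 1660, 1348 to 1524 and 197 to 227, and neuroendocrine genes to 385 to 460, 436 to 537 and 114 to 135. Much of each sum came from 1 probe set, with means of 1390, 1260 and 163 for PECAM1 and 282, 380 and 44.1 for CHGA. In each group 1 of 5 endothelial genes lay above the array median on every array, so these sums do not describe expression of the lists. The part of epithelial state in the serpin values was not tested.

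Among all 25969 probe sets compared, the profiles over the 10 arrays nearest to that of SERPINB7, by Euclidean distance on the log2 scale, belonged to RGS2 (0.94), AHNAK (0.95), KCP (1.29), KIF26A (1.33) and TM4SF1 (1.35). RGS2 differed from control by 2.75 in ETV1 cells and 1.03 on the arrays labelled ERG. The nearest to 213572_s_at of SERPINB1 were MAFF (0.44), SH3KBP1 (0.45), ROBO3 (0.50), PDLIM2 (0.62) and CCNG2 (0.69). MAFF differed from control by 1.61 and 2.22 in the same order. Profiles were picked by their distance to the member, so the likeness of these differences follows from the choice.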

How the data were processed

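Expression was measured on 10 Affymetrix arrays of RWPE-1 cells. The authors deposited 1 linear intensity per probe set and array. They pile up at 1 and were used as deposited. The method of summary and normalization was not given in the sources used here. Of the probe sets, 41097 name 1 gene, 1801 name several, 11721 are not named here and 62 are controls. The deposited intensities were put on a log2 scale after adding 16. Probe sets above their array's median on at least 3 arrays were tested with limma (lmFit and eBayes) in a single fit with a mean for each of the 3 groups, which leaves 7 residual degrees of freedom. Tests were two-sided, p-values were adjusted by Benjamini-Hochberg across every probe set tested, and the threshold was 0.05. The number of arrays limits the precision.

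Members and lists were chosen with earlier results of these data known. The text names every member, ERG, ETV1, KRT5, KRT14, the other clade B serpins, up to 3 genes per list and comparison with the largest passing change, and the 5 nearest profiles for the largest member difference in each comparison. Genes named beyond this rule (PLAU, CTSL, CASP1 and FURIN in ETV1 cells, PLAU and FURIN on the arrays labelled ERG, BCL2, PHLPP1, PXDC1, SERPINH1, COL1A1, DCN, PECAM1 and CHGA) were chosen after their values were seen. Lists covered proteases, other serpins, neighbouring genes within 1 Mb, and basal, luminal, squamous, fibroblast, leukocyte, endothelial and neuroendocrine markers. Replicate letters were checked for pairing: deviations of same-letter arrays correlated at −0.10 to 0.08 over 9 pairs, so no block was used. For each comparison, 23 alternatives gave a value. Versions were R 4.3.3, limma 3.58.1, the package data.table (version 1.17.8), Python 3.11.15, pandas 2.3.3 and matplotlib 3.10.9.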

Additional observations from a re-analysis of the deposited data

Results flagged for a closer look

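In the ETV1 group, the only one of 4 arrays, a single array stood apart for 3 of the 21 member probe sets, where chance sets 1 apart in about 1 of 20 groups. The share over all probe sets is not given here, and probe sets of 1 gene are not independent, so no excess in the members is read from this count. For 212268_at of SERPINB1, ETV1 replicate D read 378.8 while the other ETV1 arrays read 979.4 to 1046.3. For 213572_s_at of SERPINB1, the same array read 398 while the others read 754.9 to 827.7. For the dim probe set 1555551_at of SERPINB5, ETV1 replicate C read 64.1 while the others read 32.6 to 33.6.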

How the results depend on the processing

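No called member difference changed sign in any alternative run. Counts of called member probe sets fell where fewer could enter: for ETV1 against control, ERG-labelled against control and ERG-labelled against ETV1 they were 4, 4 and 4 with a filter at the 75th percentile, 3, 3 and 3 without probe sets designed to match several transcripts (which leaves out SERPINB3, SERPINB4, SERPINB7 and SERPINB13), 6, 5 and 6 genes with the brightest probe set per gene, and 5, 6 and 5 genes with the mean per gene. Leaving out single arrays gave 8 to 12, 10 to 12 and 8 to 12. With the replicate block they were 10, 10 and 12, and the letters were not shown to pair the arrays. Over all tested probe sets, the 6527 calls for ETV1 were 3552 at a threshold of 0.01 and 4242 without control replicate B. The context lists were run under the same alternatives, a choice made after seeing the data. For ETV1 against control, the 75th percentile filter left 2 called genes of other serpins, 2 chromosome 18 neighbours and 2 chromosome 6 neighbours. Probe sets of single transcripts left 1 protease, 3 other serpins, 2 chromosome 18 and 0 chromosome 6 neighbours. Called chromosome 6 neighbours were 2 with quantile normalization or a pseudocount of 64 and 0 to 4 without single arrays. For ERG-labelled against control, the 75th percentile filter left 3 other serpins and 2 chromosome 18 neighbours, the mean per gene 2 chromosome 18 neighbours, and probe sets of single transcripts 4 proteases and 5 chromosome 6 neighbours. For values that moved with normalization the cause was not tested. Another background correction was not run, since only summarised values were used here. Dim probe sets, all of SERPINB9 among them, limit what can be said.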

Other observations

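The chromosome 18 neighbours of the SERPINB genes led to a look along the whole chromosome in ETV1 cells, which was added after the values were seen. From 60 Mb on, without the SERPINB genes, 20 of 40 tested genes (50%) had a probe set called higher than control and 0 had one called lower, with a median log2 difference of 0.33. Among the 35 of these genes that lie beyond 1 Mb of the SERPINB cluster, 16 (45.7%) were higher and 0 lower. Between 30 and 60 Mb, 7 of 84 genes (8.33%) were higher and 11 (13.1%) lower. The higher share was not limited to the distal part: it was 11 of 39 genes (28.2%), with 0 lower, from 0 to 10 Mb, and 11 of 24 (45.8%), with 2 lower, from 20 to 30 Mb, while from 10 to 20 Mb 2 of 18 (11.1%) were higher and 4 lower. Over all other chromosomes, 13% of 13887 genes were higher and 17.4% lower. Positions are those of GRCh38.p14. Neighbouring genes are not independent and no test was made.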
